A study of Mus musculus with 12 samples.

Results

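The mitochondrial protein import machinery was examined in adipocytes that carried wild-type or mutant PPARγ, the nuclear receptor that drives fat cell differentiation. Its genes were taken as every gene in the count table whose symbol starts with Timm or Tomm, for translocase of the inner or of the outer mitochondrial membrane, with 10 or more counts summed over the 12 libraries. Of 27 such symbols among 55573 genes, none was marked as a pseudogene, 25 passed and 2 did not, Tomm20l with 0 counts and Timm8a2 with 3. The rule makes no comparison between genotypes. RNA was sequenced from cells differentiated in culture for 8 days from the stromal vascular fraction, the cells left when mature adipocytes are removed from digested tissue, of mouse subcutaneous fat. The donors were C57BL/6 mice with wild-type PPARγ (WT), with T166A (TA), in which alanine replaces a threonine that can be phosphorylated, or with T166D (TD), in which aspartate stands in for the phosphorylated form. The alleles were global knock-ins made with CRISPR-Cas9, so every cell of the culture carried them, and the cells were homozygous. All cultures received 850 nM insulin, 1 nM triiodothyronine, 0.5 mM IBMX, dexamethasone and 125 nM indomethacin to start differentiation. Each genotype had 4 libraries, and the labels do not say whether these came from separate mice or cultures, so that p-values measure only the spread between these libraries.

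Nearly all mitochondrial proteins are made in the cytosol and must be imported. The TOM complex of the outer membrane recognises the precursors and passes them through its channel, Tomm40. From there the TIM23 complex of the inner membrane takes in proteins with a cleavable presequence, small TIM chaperones escort hydrophobic proteins across the intermembrane space, and the TIM22 complex inserts metabolite carriers. Adipocytes gain mitochondria as they differentiate, and the respiratory chain of brown and beige fat cells is built largely from imported subunits. Of the 25 genes, 8 encode TOM subunits or their paralogs, 6 TIM23 subunits, 3 TIM22 subunits and 5 small TIMs. The remaining 3 were not counted as translocase subunits: Tomm34, a cytosolic co-chaperone, Timmdc1, an assembly factor of respiratory complex I, and Tomm6os, an RNA annotated antisense to Tomm6.

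Sequencing depth was 18823619 to 20324286 counts per WT library, 16950175 to 18182526 per TA library and 16553324 to 18357864 per TD library. All 25 genes passed the filter on low counts, among 15117 genes tested. The cells carried adipocyte markers in every library, and the summed level of 10 such markers was 15700 to 18630 CPM (counts scaled to a common library size) in WT, 15630 to 21320 CPM in TA and 10310 to 12480 CPM in TD. Markers of fibroblasts and preadipocytes moved the other way, with the sum of 12 of them at 12120 to 16150 CPM in WT, 13280 to 23990 CPM in TA and 20900 to 30450 CPM in TD. Skeletal muscle markers stood apart too: 13 of them summed to 5.55 to 14.9 CPM in WT, 21.5 to 83.9 CPM in TA and 20.6 to 308 CPM in TD, with TD replicates 3 (308 CPM) and 4 (174 CPM) the highest. Of the markers tested in TD against WT, 8 of 10 adipocyte markers fell, 9 of 11 fibroblast and preadipocyte markers rose, 12 of 12 muscle markers rose, 5 of 6 endothelial markers rose and 0 of 8 macrophage markers passed the test. Of 8 beige and brown adipocyte markers, 6 were tested and 4 fell, with a median log2 fold change of -1.20, and the 8 summed to 82.4 to 129 CPM in WT, 91.1 to 127 CPM in TA and 37.8 to 49.2 CPM in TD. Ucp1 and Cidea, markers of brown and beige fat cells, were too low to be tested. Ucp1 reached at most 0.259 CPM in WT, 0.0585 CPM in TA and 0.0586 CPM in TD. Cidea reached at most 0.877 CPM in WT, 0.556 CPM in TA and 0.162 CPM in TD. In TA against WT, 6 of 11 fibroblast and preadipocyte, 7 of 12 muscle and 3 of 6 endothelial markers rose. Of 10 adipocyte markers 1 rose and 1 fell, of 6 beige and brown markers 2 rose and 2 fell, and 0 of 8 macrophage markers passed. In TD against TA, 8 of 10 adipocyte and 4 of 6 beige and brown markers were lower, and 1 adipocyte marker was higher. Higher too were 5 of 11 fibroblast and preadipocyte, 5 of 12 muscle, 2 of 6 endothelial and 3 of 8 macrophage markers. In bulk RNA a smaller share of adipocytes and less of an RNA in each adipocyte cannot be told apart. The part of these markers in the results on import genes was not tested.

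Levels were compared between genes as CPM per kilobase of annotated exon. In WT the small TIM Timm8b was the most abundant, at 88.7 ± 11.6 CPM per kilobase (mean ± SD, n = 4, as for the other levels on this scale), followed by Timm13 at 40.9 ± 5.61, Tomm7 at 38.3 ± 5.17, Tomm5 at 33.4 ± 1.60, Tomm22 at 32.3 ± 2.55 and Timm23 at 28.9 ± 1.82. From Timm13 to Timm23, neighbours in this order differed by less than the sum of their SDs. The channel Tomm40 stood at 19.5 ± 0.932 CPM per kilobase in WT and the receptor Tomm20 at 17.1 ± 1.85. Tomm40l, the paralog of the channel, was far below it, at 2.64 ± 0.442, and only Tomm6os was lower, at 0.562 ± 0.112. Between the pair of inner membrane channel partners, Timm17a (8.23 ± 0.546 CPM per kilobase in WT) and Timm17b (6.92 ± 0.644), the difference was slightly larger than the sum of their SDs. Exon length here is the union of all annotated exons, so that a gene with long, little-used exons reads too low on this scale. For Tomm40l, 3304 of 5135 exon bases overlap Nr1i3 on the opposite strand. The strand setting of the counting is not given, so reads there may be missing and its level and rank are uncertain.

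**Figure D1:**
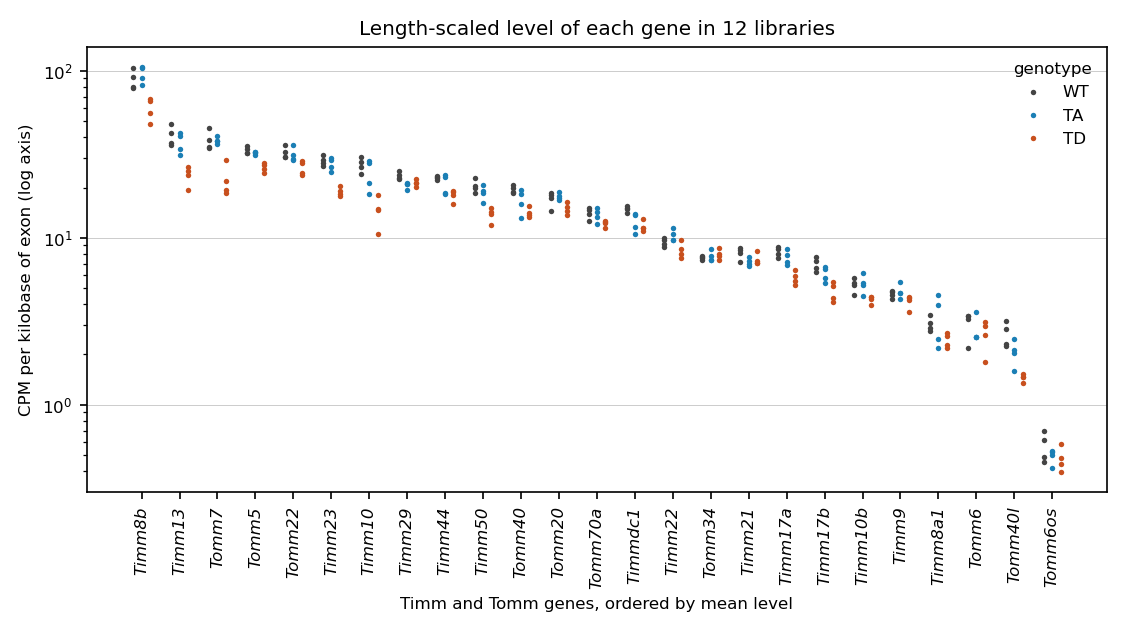
Level of each of the 25 Timm and Tomm genes as CPM per kilobase of exon (log axis), ordered by mean level, with 1 point per library and 4 libraries each of WT, TA and TD. Timm8b is highest, with a WT mean of 88.7, Tomm6os is lowest at 0.562, and the TD points sit under the WT points for most genes between them.

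In TD against WT, 14 of the 25 genes fell and 0 rose. They were Tomm40l, Tomm7, Tomm40, Tomm5 and Tomm22 of the TOM complex, Timm23, Timm50, Timm17b, Timm17a and Timm44 of TIM23, the small TIMs Timm10, Timm13 and Timm8b, and Timmdc1. That is 56% of them, while of all genes tested 14.2% fell and 15.1% rose (edgeR quasi-likelihood test, adjusted p under 0.05). The median log2 fold change of the 25 genes was -0.33, a level of 79.3% of WT, and that of all genes tested was 0.01. Fitted changes were below 0 for 24 genes, the exception being Tomm34. For 18 genes every TD library was lower than every WT library, a pattern that 16.4% of all genes tested showed. Summed over the 25 genes, the level was 1020 to 1143 CPM in WT and 768 to 886 CPM in TD. The 10 adipocyte markers had a median log2 fold change of -0.55 in the same comparison. Without TD replicates 3 and 4, the libraries with the most muscle RNA, 7 genes were called in place of 14 (Timm10, Timm13, Timm17a, Timm23, Timm50, Tomm40l and Tomm7). The median of the 25 was then -0.32. In that setting 679 of all 15673 genes tested fell, in place of 2142 of 15117.

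**Figure D2:**
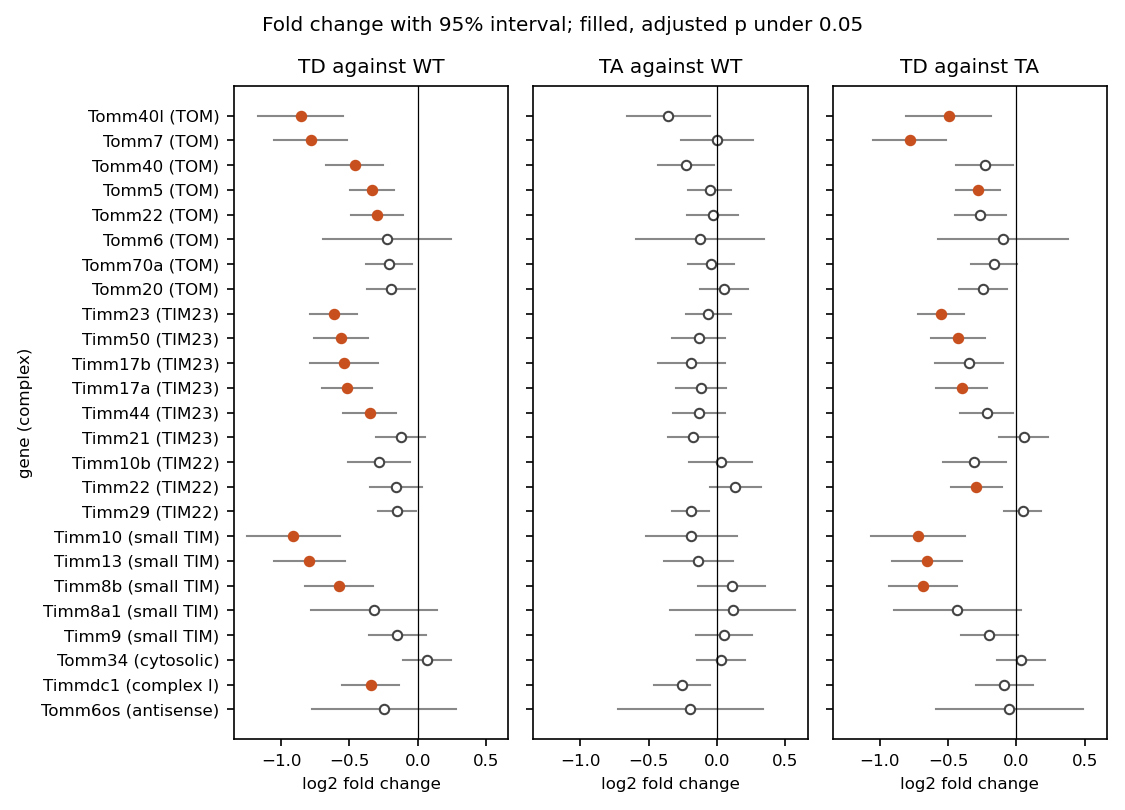
Log2 fold change of each of the 25 genes with its 95% interval in TD against WT, TA against WT and TD against TA, grouped by complex. Filled points passed an adjusted p under 0.05: 14 genes lie below 0 in the first panel, 0 in the second and 10 in the third, and no filled point lies above 0.

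In the TOM complex, 5 of 8 genes fell in TD against WT: the channel, its paralog and 3 other subunits. Tomm40 (chr7:19701313-19715438, minus strand, GRCm38) read 85.0, 92.9, 83.8 and 89.8 CPM in the WT libraries, 71.6, 86.7, 59.2 and 82.8 CPM in TA and 63.1, 69.8, 60.4 and 62.1 CPM in TD. Each TD library lay below each WT library, and TA overlapped with both, with the log2 fold change of TD against WT at -0.46 ± 0.10 (SE) and edgeR adjusted p = 0.00261. Tomm40l (chr1:171216011-171222514, minus strand), at a far lower level, read 14.7, 11.5, 11.8 and 16.2 CPM in the WT libraries, 10.4, 12.8, 8.18 and 10.9 CPM in TA and 7.55, 7.87, 6.97 and 7.56 CPM in TD. The TD values lay close together below all WT and TA values, at a log2 fold change of -0.86 ± 0.15 (SE) against WT (edgeR adjusted p = 0.000572). Much of the annotated exon sequence of Tomm40l, 3304 of 5135 bases, overlaps Nr1i3 on the opposite strand. Nr1i3 had 72 counts in all libraries against 2319 for Tomm40l. The strand setting is not given, so these counts do not settle how reads in the overlap were handled.

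The small subunit Tomm7 (chr5:23838944-23844161, minus strand), which modulates the assembly of the complex, read 51.3, 38.9, 39.1 and 43.2 CPM in the WT libraries, 42.7, 45.6, 41.1 and 43.0 CPM in TA and 33.0, 24.7, 20.9 and 21.8 CPM in TD. TA was level with WT, all TD libraries were lower, and the log2 fold change of TD against WT was -0.78 ± 0.13 (SE) (edgeR adjusted p = 0.000395). Tomm5, another small subunit, had a mean of 29.0 ± 1.39 CPM (SD, n = 4) in WT and 23.0 ± 1.37 CPM (SD, n = 4) in TD, with a change of -0.33 ± 0.08 (SE) on the log2 scale (edgeR adjusted p = 0.00358). For the third, Tomm6, the mean was 3.46 ± 0.660 CPM (SD, n = 4) in WT and 2.97 ± 0.657 CPM (SD, n = 4) in TD and the 95% interval of the log2 fold change was -0.69 to 0.25. Its count is uncertain, since 859 of its 1131 exon bases are shared with Gm21981 on the same strand.

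The fitted changes of the receptors were smaller than that of the channel, a difference that was not tested. Tomm22, the central receptor that also holds the complex together, read 59.1, 50.1, 53.9 and 50.3 CPM in the WT libraries, 51.9, 59.3, 48.4 and 49.0 CPM in TA and 46.2, 47.9, 40.4 and 39.3 CPM in TD. Every TD library lay below every WT library, and the log2 fold change was -0.30 ± 0.09 (SE) with edgeR adjusted p = 0.0198. This call was lost without WT replicate 1 (-0.24, adjusted p = 0.0748), without TD replicate 3 (-0.26, adjusted p = 0.0687) or without TD replicate 4 (-0.25, adjusted p = 0.0733), and with library totals in place of TMM (-0.23, adjusted p = 0.0573). Tomm20, the receptor for presequences, read 91.4, 70.9, 84.3 and 88.7 CPM in the WT libraries, 92.1, 86.7, 83.0 and 85.5 CPM in TA and 79.9, 70.7, 75.5 and 67.1 CPM in TD. WT replicate 2 lay within the TD range, and the log2 fold change of -0.19 ± 0.08 (SE) did not pass the test (edgeR adjusted p = 0.0926) except without WT replicate 2. A near-identical gene, Gm14494, is 99.54% identical to Tomm20 over 435 bases and took 4853 counts beside 17807 for Tomm20, so that reads may have been split between them. Its own log2 fold change was -0.26 ± 0.15 (SE). Tomm70a, the receptor for carrier proteins, read 143, 124, 135 and 148 CPM in the WT libraries, 139, 146, 130.5 and 118 CPM in TA and 122, 119, 123 and 112 CPM in TD. All TD libraries were below all WT libraries, with a log2 fold change of -0.21 ± 0.08 (SE) and edgeR adjusted p = 0.0568, which did not pass. It passed with DESeq2 or with its size factors, without WT replicate 2, without mitochondrially encoded genes and with WT and TD fitted alone.

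TIM23, the presequence translocase, held the largest share of calls among the complexes, with 5 of 6 genes lower in TD than in WT and a median log2 fold change of -0.53. Its channel, Timm23 (chr14:32180162-32201898, minus strand), read 55.8, 48.3, 50.0 and 52.3 CPM in the WT libraries, 52.2, 53.7, 44.2 and 47.6 CPM in TA and 36.5, 32.5, 31.8 and 34.1 CPM in TD. The TD values were below all others by a clear gap, and the log2 fold change was -0.61 ± 0.08 (SE), the lowest adjusted p of the 25 genes (edgeR adjusted p = 0.000119). Several near-identical copies of Timm23 are annotated, and the one with the most counts, Gm10171, had 231 beside 9851. Timm50 (chr7:28305516-28312072, minus strand), the receptor that takes over presequences from TOM, read 60.9, 53.4, 50.0 and 54.8 CPM in the WT libraries, 51.1, 55.5, 43.4 and 49.8 CPM in TA and 40.5, 37.4, 38.4 and 31.9 CPM in TD. It too was lower in every TD library than in any WT or TA library, with a log2 fold change of -0.56 ± 0.09 (SE) against WT (edgeR adjusted p = 0.000438).

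Both forms of the channel partner Timm17 fell. Timm17a read 67.5, 59.9, 63.0 and 69.4 CPM in the WT libraries, 62.6, 67.2, 53.9 and 56.2 CPM in TA and 50.4, 46.6, 43.7 and 40.9 CPM in TD. Timm17b, encoded on the X chromosome, read 19.5, 15.9, 16.8 and 18.6 CPM in the WT libraries, 13.7, 16.7, 14.6 and 17.1 CPM in TA and 14.0, 13.1, 10.5 and 11.1 CPM in TD. WT and TD did not overlap for either, and their log2 fold changes in TD against WT were near each other, at -0.52 ± 0.09 (SE) (edgeR adjusted p = 0.000513) for Timm17a and -0.54 ± 0.12 (SE) (adjusted p = 0.00299) for Timm17b. Timm44, which anchors the ATP-driven import motor to the channel, read 81.0, 83.0, 85.0 and 86.0 CPM in the WT libraries, 66.7, 86.7, 67.6 and 84.2 CPM in TA and 69.9, 65.8, 68.5 and 58.1 CPM in TD. TA replicates 1 and 3 lay in the TD range and the other TA libraries at the level of WT, and the log2 fold change of TD against WT was -0.35 ± 0.09 (SE) (edgeR adjusted p = 0.00829). Timm21, which links TIM23 to TOM and to the respiratory chain, was the exception in its complex: its mean was 30.2 ± 2.40 CPM (SD, n = 4) in WT, 26.7 ± 1.44 CPM (SD, n = 4) in TA and 27.7 ± 2.27 CPM (SD, n = 4) in TD, and the 95% interval of its log2 fold change in TD against WT was -0.30 to 0.06.

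**Figure D3:**
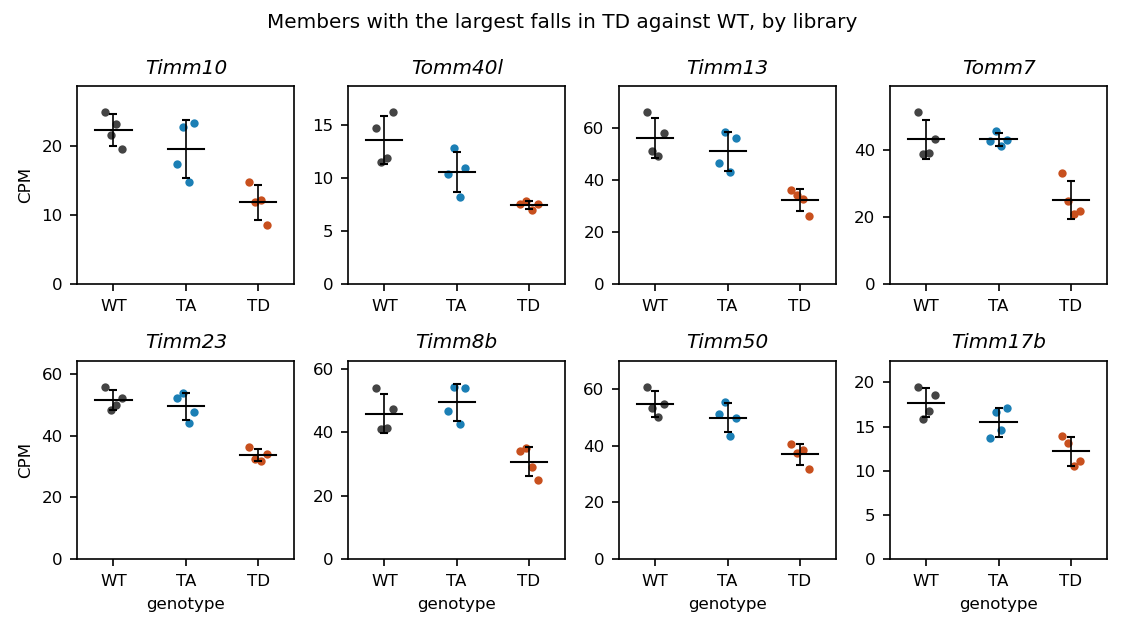
CPM in each library for the 8 genes with the largest falls in TD against WT, with the genotype mean as a line, the SD as a bar and 4 points per genotype. In each panel all 4 TD points lie below all 4 WT points, while TA points reach into the WT range.

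Among the small TIMs, 3 of 5 fell in TD against WT, and with them the largest change of the machinery. Timm10 (chr2:84826997-84830213, plus strand), which works in a complex with Timm9, read 25.0, 21.6, 23.2 and 19.6 CPM in the WT libraries, 17.4, 22.8, 14.8 and 23.4 CPM in TA and 14.8, 11.9, 12.2 and 8.62 CPM in TD. The highest TD value and the lowest TA value nearly met, no TD value reached WT, and the log2 fold change of TD against WT was -0.91 ± 0.16 (SE) (edgeR adjusted p = 0.000717), a level of 53.2% of WT. Timm9 itself had a mean of 19.7 ± 1.02 CPM (SD, n = 4) in WT and 17.8 ± 1.62 CPM (SD, n = 4) in TD, and its log2 fold change had a 95% interval of -0.36 to 0.06. Timm13 (chr10:80899450-80900969, minus strand) read 66.1, 51.0, 49.2 and 58.1 CPM in the WT libraries, 46.4, 58.5, 42.9 and 56.2 CPM in TA and 36.2, 34.4, 32.6 and 26.3 CPM in TD. Timm8b (chr9:50603910-50605320, plus strand), another small TIM, read 53.9, 41.0, 41.5 and 47.4 CPM in the WT libraries, 46.9, 54.4, 42.6 and 54.1 CPM in TA and 34.2, 35.0, 28.9 and 25.0 CPM in TD. WT and TA overlapped throughout for this pair, TD stood below both, and the log2 fold changes of TD against WT were -0.79 ± 0.12 (SE) (edgeR adjusted p = 0.000287) for Timm13 and -0.58 ± 0.12 (SE) (adjusted p = 0.002) for Timm8b. Timm8a1, the X-linked paralog of Timm8b, was measured with less precision, at 4.33 ± 0.406 CPM (SD, n = 4) in WT and 3.46 ± 0.341 CPM (SD, n = 4) in TD, with a 95% interval of -0.78 to 0.14 for its log2 fold change. It shares 612 identical bases with Gm9797, which had 87 counts beside 908.

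No gene of the carrier translocase TIM22 passed the test in TD against WT. Its channel, Timm22, read 28.1, 29.4, 31.7 and 30.8 CPM in the WT libraries, 36.3, 33.6, 30.7 and 31.1 CPM in TA and 27.1, 30.8, 25.3 and 24.2 CPM in TD. WT lay between TA above it and TD below it, with overlap on both sides, and the log2 fold change of TD against WT was -0.16 ± 0.09 (SE) (95% interval -0.35 to 0.03). Timm29, a subunit found in animals and not in yeast, had 74.7 ± 3.75 CPM (SD, n = 4) in WT and 67.4 ± 2.89 CPM (SD, n = 4) in TD, a log2 fold change of -0.15 ± 0.06 (SE) (edgeR adjusted p = 0.0961). Timm10b changed by -0.28 ± 0.11 (SE) (edgeR adjusted p = 0.0591), and its count may hold reads of Arfip2, which overlaps it by 277 bases on the opposite strand and had 15837 counts beside 3877. Timm10b passed with DESeq2, with WT and TD fitted alone, without mitochondrially encoded genes and without WT replicate 3. The intervals of Timm22 and Timm29 reach down to -0.35 and -0.29, so that falls of that size lie within them.

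The 3 genes outside the translocases differed from each other. The co-chaperone Tomm34 had the smallest log2 fold change of the 25 in size, at 23.1 ± 0.666 CPM (SD, n = 4) in WT, 23.6 ± 1.70 CPM (SD, n = 4) in TA and 24.2 ± 1.71 CPM (SD, n = 4) in TD, with a 95% interval of -0.11 to 0.24 for the log2 fold change of TD against WT. Timmdc1 fell in TD, with a log2 fold change of -0.34 ± 0.10 (SE) against WT (edgeR adjusted p = 0.0145), from 26.5 ± 0.992 CPM (SD, n = 4) to 20.9 ± 1.51 CPM (SD, n = 4). Tomm6os had 329 counts over all libraries and overlaps Prickle4, Gm21981 and Tomm6 on the opposite strand, so that its count is uncertain, and its log2 fold change in TD against WT was -0.25 ± 0.25 (SE).

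Since many of these genes moved together, their promoters are shown as 300-base windows of 250 bases before and 50 after the annotated start, credited to RefSeq on GRCm38.p6 and read 5′ to 3′ in the direction of transcription. Of the 25 genes 22 had a window, and Timm21, Tomm40l and Tomm7 had none. The windows shown are those of Timm10, Timm13, Timm23 and Timm8b, which were lower in TD than in both other genotypes, of Timm50, which was too, and of Tomm34, which did not pass the test in any comparison. Tomm34 has a further window upstream that is not shown. Timm17a and Tomm5 were also lower in TD than in both other genotypes. Their windows are not shown and held no match to the letters named next. Capitals mark exact matches, on either strand, to CCGGAAG (bound by ETS factors such as GABP), to GCGCA and GCGC with any 1 base between them (nuclear respiratory factor NRF1) or to AAGATGGCG (YY1), and where matches overlap they form 1 run of capitals. The window of Timm10 is chr2:84826771-84827070 on the plus strand, that of Timm13 chr10:80900920-80901219 on the minus strand, that of Timm23 chr14:32201842-32202141 on the minus strand, that of Timm8b chr9:50603651-50603950 on the plus strand, that of Timm50 chr7:28311997-28312296 on the minus strand and that of Tomm34 chr2:164071053-164071352 on the minus strand.
Timm10: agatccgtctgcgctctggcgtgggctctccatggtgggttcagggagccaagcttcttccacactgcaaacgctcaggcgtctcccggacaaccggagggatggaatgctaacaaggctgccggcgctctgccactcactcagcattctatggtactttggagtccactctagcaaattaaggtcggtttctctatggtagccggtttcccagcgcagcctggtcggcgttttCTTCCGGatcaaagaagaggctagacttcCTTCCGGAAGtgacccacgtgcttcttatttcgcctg
Timm13: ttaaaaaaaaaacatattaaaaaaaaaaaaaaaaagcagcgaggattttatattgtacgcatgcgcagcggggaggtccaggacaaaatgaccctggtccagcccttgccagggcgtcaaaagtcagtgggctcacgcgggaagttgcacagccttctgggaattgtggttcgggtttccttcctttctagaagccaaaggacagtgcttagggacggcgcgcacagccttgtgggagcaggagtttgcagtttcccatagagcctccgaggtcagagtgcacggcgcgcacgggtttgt
Timm23: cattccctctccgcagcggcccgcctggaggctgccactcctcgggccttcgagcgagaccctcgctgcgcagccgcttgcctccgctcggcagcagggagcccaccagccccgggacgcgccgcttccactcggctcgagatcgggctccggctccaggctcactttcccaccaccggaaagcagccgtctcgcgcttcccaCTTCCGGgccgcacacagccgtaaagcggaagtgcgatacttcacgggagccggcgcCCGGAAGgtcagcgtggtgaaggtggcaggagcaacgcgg
Timm8b: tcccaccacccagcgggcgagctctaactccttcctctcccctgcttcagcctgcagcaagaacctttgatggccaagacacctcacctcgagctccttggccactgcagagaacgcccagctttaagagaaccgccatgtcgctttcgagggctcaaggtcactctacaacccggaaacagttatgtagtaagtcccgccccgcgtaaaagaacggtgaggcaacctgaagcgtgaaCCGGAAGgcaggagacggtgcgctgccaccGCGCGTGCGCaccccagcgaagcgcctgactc
Timm50: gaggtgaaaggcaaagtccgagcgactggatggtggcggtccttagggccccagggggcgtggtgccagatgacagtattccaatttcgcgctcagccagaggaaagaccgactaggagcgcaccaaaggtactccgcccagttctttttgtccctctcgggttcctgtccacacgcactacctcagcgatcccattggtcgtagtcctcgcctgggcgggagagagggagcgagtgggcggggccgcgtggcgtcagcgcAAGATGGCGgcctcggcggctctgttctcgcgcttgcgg
Tomm34: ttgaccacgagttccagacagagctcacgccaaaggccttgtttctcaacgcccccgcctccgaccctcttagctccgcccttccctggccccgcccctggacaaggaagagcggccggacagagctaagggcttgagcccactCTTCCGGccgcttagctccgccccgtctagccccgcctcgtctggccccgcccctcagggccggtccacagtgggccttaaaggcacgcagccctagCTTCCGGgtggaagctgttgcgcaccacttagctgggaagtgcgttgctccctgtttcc

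The ETS letters were present in the windows of 9 of 22 genes: Timm10, Timm10b, Timm23, Timm29, Timm8b, Timmdc1, Tomm22, Tomm34 and Tomm70a. Among all 32851 windows of the same length 8.86% held them, and among windows of the genes tested 16.4%. They stood in 5 of the 12 genes with a window that fell in TD against WT and in 4 of the 10 that did not pass. NRF1 letters were found for Timm8b and Tomm20 (4.6% of all windows and 9.27% of those of tested genes) and YY1 letters for Timm50 (1.4% and 2.71%). A PPAR response element, searched as AGGTCA repeated with any 1 base between the copies, matched in 0 of the 22 genes and in 0.0396% of all windows. These matches describe letters in the windows and were not tested against expression.

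In TA against WT, 0 of 25 genes passed the test by edgeR in either direction. Of all genes tested, 4.41% fell and 6.72% rose in this comparison at an adjusted p under 0.05. At an unadjusted p under 0.05 there were 4 of the 25 lower (Timm29, Timmdc1, Tomm40 and Tomm40l) and 0 higher. The share of all genes at that unadjusted threshold was not counted, so no background stands beside this number. DESeq2 called 1 gene, Timm29. The median log2 fold change of the 25 genes was -0.12, beside -0.01 for all genes tested, and it moved to -0.05 without WT replicate 1 and to -0.06 without TA replicate 3. TA replicate 3 had the lowest TA value for 14 of the 25 genes. Timm29 came nearest to a call, at 79.5, 71.0, 72.6 and 75.8 CPM in WT and 67.0, 66.5, 61.3 and 66.5 CPM in TA, with a log2 fold change of -0.19 ± 0.07 (SE) and edgeR adjusted p = 0.0674. Every TA library lay below every WT library for Timm29 and Timmdc1, a pattern that 5.85% of all genes tested showed. DESeq2 gave Timm29 an adjusted p of 0.0382 and edgeR with library totals one of 0.0362.

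The 95% intervals included 0 for 21 of the 25 genes. The exceptions were the 4 genes with an unadjusted p under 0.05, among them the channel Tomm40 (-0.44 to -0.02), its paralog Tomm40l (-0.66 to -0.05) and Timm29 (-0.33 to -0.06). Among other core subunits the interval of the log2 fold change of TA against WT was -0.23 to 0.10 for Timm23, -0.22 to 0.15 for Tomm22, -0.12 to 0.23 for Tomm20, -0.21 to 0.12 for Tomm70a and -0.30 to 0.07 for Timm17a. Tomm7 was the same in both genotypes to the second decimal of its log2 fold change, with an interval of -0.26 to 0.26. The widest interval, that of Tomm6os, ran from -0.72 to 0.33. Means were as high in TA as in WT or higher for 7 of the 25 genes, among them Timm8b at 49.5 ± 5.75 CPM (SD, n = 4) against 46.0 ± 6.01 CPM (SD, n = 4) and Timm22 at 32.9 ± 2.58 CPM (SD, n = 4) against 30.0 ± 1.56 CPM (SD, n = 4).

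TD and TA, the phosphomimetic and the unphosphorylatable form, were also compared directly, and 10 of the 25 genes were lower in TD while 0 were higher. These were Timm10, Timm13 and Timm8b, Timm23, Timm50 and Timm17a, Timm22, and Tomm7, Tomm40l and Tomm5. The shares among all genes tested were 9.37% for a lower and 7.33% for a higher level in TD. The median log2 fold change of the 25 genes was -0.28, and that of all genes tested 0.02. For 12 genes every TD library was lower than every TA library, as for 10.6% of all genes tested. Tomm7 had the largest difference, a log2 fold change of -0.78 ± 0.13 (SE) (edgeR adjusted p = 0.00069), followed by Timm10 at -0.72 ± 0.16 (SE) (adjusted p = 0.00698), Timm8b at -0.68 ± 0.12 (SE) (adjusted p = 0.00117) and Timm13 at -0.65 ± 0.12 (SE) (adjusted p = 0.002). The channel Timm23 was lower in TD at -0.55 ± 0.08 (SE) (edgeR adjusted p = 0.000279) and Timm22, the other inner membrane channel, at -0.29 ± 0.09 (SE) (adjusted p = 0.0335). The comparison shares its TD libraries with that of TD against WT, and 9 genes were lower in both.

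Calls of 3 genes in TD against TA were lost on leaving out any 1 of several libraries. In the full fit these genes had log2 fold changes of -0.29 (Timm22, edgeR adjusted p = 0.0335), -0.28 (Tomm5, 0.0185) and -0.50 (Tomm40l, 0.0308). Timm22 lost its call without TA replicate 1, TA replicate 2, TD replicate 1, TD replicate 3 or TD replicate 4, with log2 fold changes of -0.24, -0.28, -0.30, -0.27 and -0.25. Tomm5 lost it without TA replicate 2, TD replicate 2 or TD replicate 4, at -0.27, -0.27 and -0.25. Tomm40l lost it without each of TA replicates 1, 2 and 4 (-0.50, -0.39 and -0.47) and of TD replicates 1, 2, 3 and 4 (-0.50, -0.52, -0.47 and -0.50). The other 7 kept their calls when any 1 library was left out, but without both TD replicates 3 and 4 calls remained for Timm23, Timm8b and Tomm7 alone. Of all genes tested, 448 of 15673 were then lower, in place of 1416 of 15117. Without TA replicate 3, 15 genes were called, and 1756 of all 15377 genes tested were lower.

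Whether paralogs changed alike was looked at as the ratio of their counts within a library. The receptors Tomm20 and Tomm22, which are not paralogs, were included as a further pair. Such a ratio does not depend on how libraries are scaled. In 5 pairs and 3 comparisons, 15 tests in all, none passed after adjustment (two-sided exact test permuting 4 against 4 libraries, lowest adjusted p = 0.143, smallest unadjusted p possible 0.0286). Ratios at that smallest p still had an adjusted p of 0.143, so a change confined to a few ratios could not have passed. The tests therefore do not show that paralogs changed alike. The log2 ratio of Tomm40 to Tomm40l was 2.71 ± 0.25 (SD, n = 4) in WT, 2.83 ± 0.07 in TA and 3.09 ± 0.05 in TD, without overlap of TD with either. The log2 ratio of Timm10 to Timm10b was 0.26 ± 0.25 in WT and -0.39 ± 0.32 in TD, again without overlap. For Timm17a and Timm17b the log2 ratio was 1.88 ± 0.06 (WT), 1.95 ± 0.20 (TA) and 1.90 ± 0.10 (TD), with overlap between all genotypes.

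The translocases work with further proteins, of which 33 were listed by role. In TD against WT, 26 of the 33 fell and 0 rose, beside 14.2% lower and 15.1% higher among all genes tested, with a median log2 fold change of -0.48. The ATP-driven motor that pulls proteins through TIM23 had 5 of 6 genes lower: its chaperone Hspa9 (mitochondrial Hsp70, -0.67), the nucleotide exchange factors Grpel1 (-0.71) and Grpel2 (-0.32), and the J-proteins Dnajc15 (-0.75) and Dnajc19 (-0.49), but not Pam16 (-0.35, edgeR adjusted p = 0.292). The disulfide relay that traps small TIMs in the intermembrane space had both genes lower, Chchd4 (-0.73) and Gfer (-0.56). Processing peptidases fell in 5 of 6 cases, MICOS subunits, which shape the cristae, in 6 of 7, matrix chaperones in 3 of 3, insertases in 2 of 3 and subunits of SAM, which inserts outer membrane barrel proteins, in 2 of 4. The largest falls were those of Immp2l, a subunit of the inner membrane peptidase (-0.98 ± 0.20 (SE)), Dnajc15 (-0.75 ± 0.14 (SE)) and Micos13 (-0.74 ± 0.11 (SE)). Romo1, a small TIM23 subunit without a Timm symbol, fell too (-0.70 ± 0.13 (SE)), and Agk, a TIM22 subunit and lipid kinase, had -0.11 ± 0.10 (SE), which did not pass (edgeR adjusted p = 0.421).

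In TA against WT the partners gave 4 calls lower (12.1%) and 1 higher (3.03%), beside 4.41% and 6.72% of all genes tested, with a median log2 fold change of -0.12. Lower were Dnajc19 (-0.42 ± 0.10 (SE), edgeR adjusted p = 0.0159), Gfer (-0.41 ± 0.10 (SE), adjusted p = 0.0129), Hspa9 (-0.35 ± 0.10 (SE), adjusted p = 0.0274) and Samm50, the channel of SAM (-0.28 ± 0.08 (SE), adjusted p = 0.0306). Higher was Mtch1, an outer membrane insertase, which read 112, 106, 94.3 and 96.0 CPM in the WT libraries, 131, 134, 129 and 140.0 CPM in TA and 108, 113, 111 and 108 CPM in TD. All TA libraries were above all others, and the log2 fold change of TA against WT was 0.39 ± 0.07 (SE) (edgeR adjusted p = 0.00139). In TD against TA, 15 of 33 partners were lower and 0 higher (9.37% and 7.33% of all genes tested), led by Dnajc15 at -1.05 ± 0.14 (SE), Romo1 at -0.67 ± 0.13 (SE) and Immp2l at -0.65 ± 0.20 (SE). Dnajc15 read 42.3, 32.1, 32.9 and 40.9 CPM in the WT libraries, 40.8, 56.1, 36.8 and 48.8 CPM in TA and 26.3, 22.3, 18.3 and 20.9 CPM in TD. Its highest TD value was below its lowest WT and TA values.

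Set beside other mitochondrial genes, the import genes were not the ones that fell most in TD against WT. Nuclear-encoded subunits of oxidative phosphorylation had a median log2 fold change of -0.68 with 76 of 83 lower, mitochondrial ribosomal proteins -0.40 with 64 of 77 lower, and the protein genes of the mitochondrial genome -0.84 with 11 of 13 lower. The 25 Timm and Tomm genes had -0.33 with 14 lower. Without Tomm34, Timmdc1 and Tomm6os, the 22 translocase subunits had -0.34 with 13 lower. In TD against TA the medians were -0.55 (74 of 83 lower), -0.33 (46 of 77 lower) and -0.56 (5 of 13 lower) in the same order, against -0.28 for the 25 genes. In TA against WT they were -0.12 (1 of 83 lower), -0.09 (1 of 77 lower) and -0.28 (2 of 13 lower), against -0.12. No test of the difference between lists was made. Transcripts of the mitochondrial genome made up 5.39% ± 0.40 (SD, n = 4) of a WT library, 3.81% ± 0.81 of a TA library and 3.20% ± 0.35 of a TD library.

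**Figure D4:**
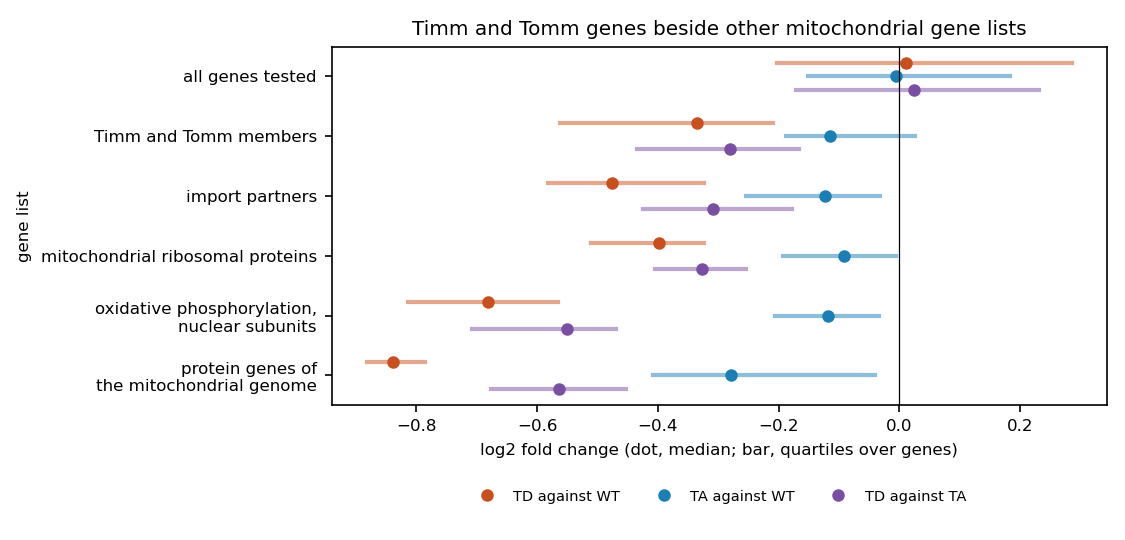
Median log2 fold change (dot) and quartiles over genes (bar) of the 25 Timm and Tomm genes, 33 import partners and 3 other mitochondrial lists beside all 15117 genes tested, in each comparison. In TD against WT the medians run from -0.33 for the Timm and Tomm genes to -0.84 for the mitochondrial genome, and that of all genes is 0.01.

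Within TD the libraries were not alike. The 25 genes summed to 886, 849, 825 and 768 CPM in TD replicates 1 to 4, to 1143, 1020, 1039 and 1108 CPM in WT and to 1015, 1107, 935.5 and 1023 CPM in TA. TD replicate 4 had the lowest TD value for 12 of the 25 genes and TD replicate 1 the highest for 14. The adipocyte markers summed to 12480, 12430, 11090 and 10310 CPM in the same 4 TD libraries and the fibroblast and preadipocyte markers to 20900, 23590, 28090 and 30450 CPM. The muscle marker sum was lowest among the TD libraries in replicate 1, at 20.6 CPM, which was above every WT library and below every TA library. In that library the 25 genes and the adipocyte markers both summed to less than in any WT or TA library. The part of either marker group in the level of the 25 genes was not tested. Spread within genotypes, as the coefficient of variation, ran from 4.49% for Timm29 and 4.57% for Tomm5 to 21.7% for Timm8a1.

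**Figure D5:**
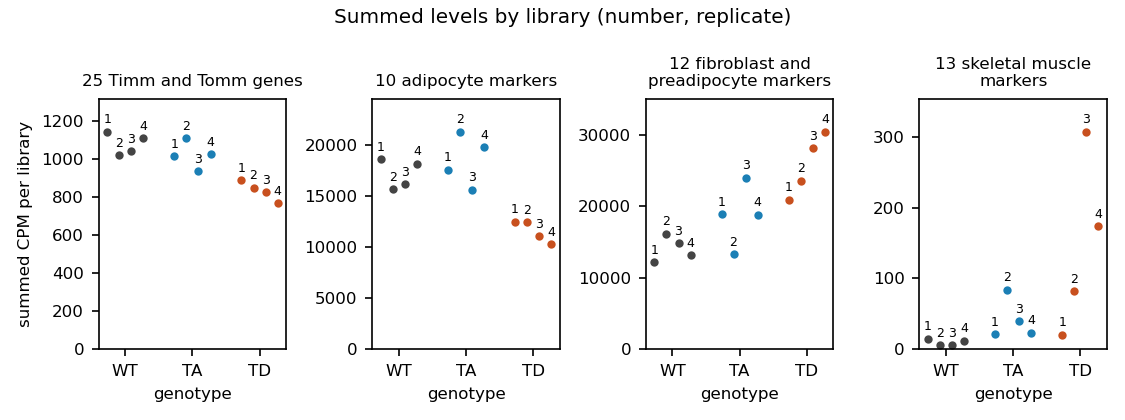
Summed CPM in each library, numbered by replicate, for the 25 Timm and Tomm genes and for markers of adipocytes, of fibroblasts and preadipocytes and of skeletal muscle. The 25 genes sum to 768 to 886 in TD and to at least 935.5 in the other libraries, the adipocyte markers are lowest and the fibroblast markers mostly highest in TD, and muscle markers are highest in TD replicates 3 and 4.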

How the data were processed

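RNA-seq counts of 12 adipocyte libraries, 4 each of WT, TA and TD, were analysed. The authors deposited read counts per gene without normalization, as 1 table and library by library, and the values of the 12 libraries were equal in both. According to the submitters' processing notes and the study's methods, bcl2fastq 2.17.1.14 and cutadapt 1.9.1 prepared the reads, HISAT2 2.0.1 aligned them to GRCm38 and HTSeq 0.6.1 counted them. The strand setting is not given in the sources used here, so reads of genes that overlap on opposite strands may have been mixed. Genotypes and replicate numbers came from the sample labels. The study used DESeq2 for differential expression, which served here as an alternative.

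R 4.3.3 with edgeR 4.0.16 was used. Genes were kept by filterByExpr (minimum count 10, minimum total 15), normalized by TMM (factors 0.957 to 1.04) and fitted by a quasi-likelihood model over all 12 libraries. Tests were two-sided, with Benjamini-Hochberg adjustment over 15117 genes and calls at an adjusted p under 0.05. SE is the fold change divided by the root of the F statistic. CPM use TMM-scaled library sizes. The steps were tested on simulated data. Positions and exon lengths came from GENCODE M21 (GRCm38), in which 55480 of 55573 identifiers were found. Paralog ratios were log2 of counts plus 0.5. Alternatives were DESeq2 1.42.0, other normalizations and filters, the replicate number as a block, the compared genotypes alone, and leaving out each library.

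The genes and lists were chosen with earlier results of these data known. By rule, values in every library were given for the 8 largest called falls in TD against WT, the 4 largest calls in each other comparison and 10 core subunits, and for partners the 3 largest called rises and falls. Mtch1 and Dnajc15, 2 of those partners, are shown by library, and motor and relay genes were named as members of their groups, after their values were seen. Replicate pairs of 1 genotype differed by more than sampling noise (chi-square per degree of freedom 4.89 to 37.7 over 18 pairs), so all 12 libraries were counted. This does not tell separate mice from separate cultures.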

Additional observations from a re-analysis of the deposited data

Results flagged for a closer look

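Of 75 groups of 4 libraries (25 genes in 3 genotypes), 3 had 1 library far from the others, where chance gives about 1 in 20. Timm29 was at 61.3 CPM in TA replicate 3, the lowest, with the other TA libraries at 66.5 to 67.0 CPM. Tomm6 was at 2.48 CPM in WT replicate 2, the lowest, with the other WT libraries at 3.67 to 3.87 CPM. Tomm6 was also at 4.06 CPM in TA replicate 4, the highest, with the other TA libraries at 2.87 to 2.89 CPM.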

How the results depend on the processing

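Over 16 alternatives for each comparison, 13 of the 14 genes called against WT and 7 of the 10 called against TA in TD kept their calls throughout, and none of these called genes changed direction. Genes without a call and partners were not followed one by one. Leaving out 1 library gave 13 to 16 calls lower (TD against WT), 0 to 0 (TA against WT) and 7 to 15 (TD against TA), and, in this order, medians of -0.37 to -0.30, -0.11 to -0.05 and -0.32 to -0.25. Library totals alone and DESeq2 each gave 1 call lower in TA against WT in place of 0. Without both TD replicates 3 and 4, an alternative chosen after seeing the data, calls fell to 7 (TD against WT) and 3 (TD against TA), with only 2 TD libraries left. Over all 15673 genes tested there, calls lower were 679 and 448, in place of 2142 and 1416 of 15117. Without TA replicates 3 and 4, likewise added, calls among the 25 genes were 0 (TA against WT) and 14 (TD against TA). Over all 15741 genes tested there, 458 and 1616 were lower. Library totals moved the median of all genes to 0.08 (TD against WT) and 0.10 (TD against TA), where the medians of the 25 genes became -0.27 and -0.20. With the replicate number as a block, calls lower were 14, 0 and 12 and medians -0.34, -0.12 and -0.28. Same-numbered libraries showed no common deviation (r from -0.24 to 0.20, over 0.1 in 2 of 12 pairs). With so few libraries this does not settle whether the numbers pair the samples. In the paralog ratios, leaving out 1 library leaves fewer ways to split the libraries between genotypes. Genes with few counts, Tomm6, Tomm6os and Timm8a1, had standard errors of 0.22 to 0.25, and 95% intervals reached up to 0.54 on either side of the estimate.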
